A study of Mus musculus with 8 samples.

Results

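Lilrb4a and Lilr4b are a pair of neighbouring receptor genes on mouse chromosome 10, described here in Tregs (CD4+ Foxp3+) and Tconvs (CD4+ Foxp3-) of mice with and without a CD70 transgene. The members are the rows of the deposited table that carry either name. There were 3 such rows of 52636, namely ENSMUSG00000112148 and ENSMUSG00000062593, both named Lilrb4a, and ENSMUSG00000112023, named Lilr4b. All 3 reached a value of 60 in at least 2 libraries. The pair was chosen by its levels in CD70Tg and control Tregs and Tconvs, that is, for its rise, so that these levels and their differences are given as a description, with no p-value.

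RNA was sequenced in 8 libraries, 2 in each of 4 groups, each from 200000 cells sorted from Foxp3 reporter mice, with an age of 6 to 8 weeks per the study's methods. Controls were CD27+/- mice, and CD70Tg mice were CD11c-Cd70tg;CD27+/- mice, whose transgene places CD70, the CD27 ligand, under the CD11c promoter, which is active in dendritic cells. All groups thus carried a single working Cd27 allele. The groups are control Tconvs, CD70Tg Tconvs, control Tregs and CD70Tg Tregs, and the libraries within a group are called a and b, letters that tie no library to one of another group. Nothing says that libraries of a group came from separate animals, so that p-values measure the spread between these samples, which may be technical.

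Values are reads per gene on a scale of 20 M per library, brought up to the next whole number, so that a value of 20 is 1 read per M. In 7 libraries the value of 1 read could be read from the low values and gave 1.91 to 4.57 M reads in Treg libraries and 6.94 to 19.52 M in the 3 Tconv libraries concerned. In CD70Tg Tconv library b a read was worth too little to resolve. The labels were checked on Foxp3, which lay between 19769 and 21367 in the 4 Treg libraries and between 1039 and 1497 in the 4 Tconv libraries. The control columns are labelled KO in the table and WT in the sample descriptions. Cd27, the receptor gene, was present in control Tconvs (3109.5 ± 183, SD, n = 2) and control Tregs (5358 ± 262, SD, n = 2), as in the other groups. Values of the T cell markers (Cd3d, Cd3e, Cd3g, Cd4 and Trac) summed to between 66974 and 99765 in every library.

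Lilrb4a encodes gp49B, an inhibitory receptor with extracellular Ig-like domains and cytoplasmic ITIMs (immunoreceptor tyrosine-based inhibitory motifs), which recruit the phosphatases SHP-1 and SHP-2 when phosphorylated. Lilr4b encodes gp49A, a close relative that lacks ITIMs, so that the name of inhibitory receptor applies to Lilrb4a and not to its neighbour. Both are best known from mast cells, macrophages and other myeloid cells, and gp49B is also found on activated T and NK cells.

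In GENCODE M21 (GRCm38), Lilr4b is on the plus strand at chr10:51480632-51486703, and Lilrb4a (ENSMUSG00000112148) follows it at chr10:51490956-51496611, 4252 bases further on. The third row, ENSMUSG00000062593, has the name Lilrb4a in the deposited table but Gm49339 in this annotation. It is a read-through model that spans both genes, at chr10:51480612-51496613. Of its 1990 exon bases, 1846 are also exon of Lilrb4a, 122 are exon of Lilr4b and 22 (1.1%) are its own. By contrast, 97.8% of the 5439 exon bases of Lilr4b are in no other gene, and 64.1% of the 5227 of Lilrb4a. A gene on the opposite strand, Gm40645, overlaps 131 exon bases of Lilrb4a. The annotation, overlap mode and strand setting of the authors' counting are not given in the sources used here, so that the same reads may stand in both Lilrb4a rows, and the rows are not independent measurements.

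**Figure D1:**
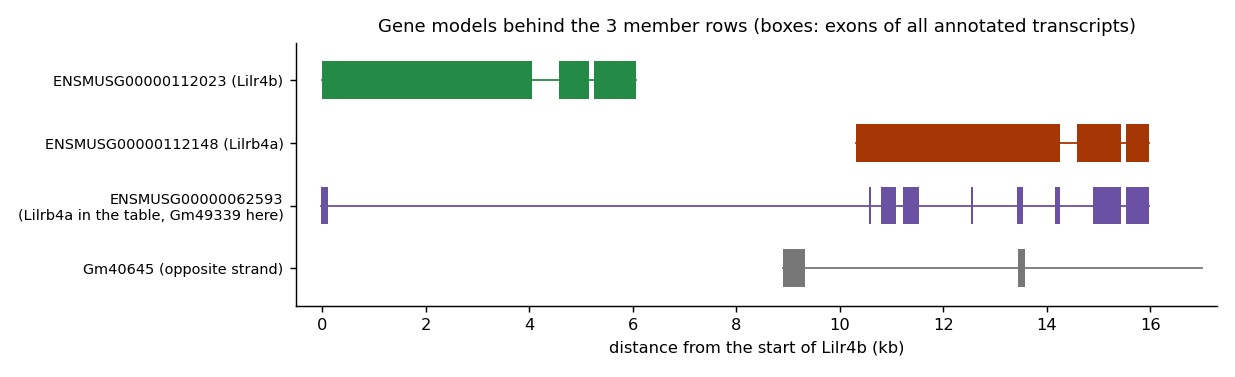
Gene models of the pair, with distance from the start of Lilr4b in kb on the horizontal axis, exons of all annotated transcripts as boxes and gene bodies as lines. The read-through model ENSMUSG00000062593 has exons within Lilrb4a and a short one at the start of Lilr4b, and the line of Gm40645 runs on past the right edge.

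The 2 genes are near copies. The main transcript of each has 9 exons, and in coding exons 1 to 7, 829 of 864 bases (95.9%) are identical. Exon 3, which belongs to the Ig-like part, holds the most differences, 17 in 285 bases (94.0% identical). It is shown in both genes (GRCm38, plus strand, chr10:51481140-51481424 in Lilr4b and chr10:51491434-51491718 in Lilrb4a) because reads from this stretch are among those that can be told apart. Capitals mark the bases that differ.
Lilr4b exon 3: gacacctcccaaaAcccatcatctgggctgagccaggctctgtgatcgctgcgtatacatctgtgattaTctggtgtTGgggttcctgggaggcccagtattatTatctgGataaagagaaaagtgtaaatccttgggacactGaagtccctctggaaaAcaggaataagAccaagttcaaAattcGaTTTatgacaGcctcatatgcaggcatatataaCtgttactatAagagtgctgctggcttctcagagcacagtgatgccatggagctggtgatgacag
Lilrb4a exon 3: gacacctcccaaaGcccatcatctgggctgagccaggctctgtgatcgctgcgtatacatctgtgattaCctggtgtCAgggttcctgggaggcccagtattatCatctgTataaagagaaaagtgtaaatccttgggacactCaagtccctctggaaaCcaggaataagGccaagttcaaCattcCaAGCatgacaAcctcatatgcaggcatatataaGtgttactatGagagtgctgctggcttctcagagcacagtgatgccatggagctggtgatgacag

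The genes part in exon 8, which has 68 bases in Lilr4b and 66 in Lilrb4a. The coding sequence of Lilr4b ends within this exon (303 codons, stop not counted), whereas that of Lilrb4a reads through it and on for 75 coding bases in exon 9 (335 codons). The coding part of exon 8 is shown for this reason (chr10:51485713-51485757 in Lilr4b and chr10:51495994-51496059 in Lilrb4a). Capitals mark bases with no identical partner in the other gene's coding part. The rest of exon 8 of Lilr4b, after its coding part, is not shown and was not aligned. The capitals at the end of Lilrb4a therefore need not be divergent sequence.
Lilr4b exon 8: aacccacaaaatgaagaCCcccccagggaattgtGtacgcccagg
Lilrb4a exon 8: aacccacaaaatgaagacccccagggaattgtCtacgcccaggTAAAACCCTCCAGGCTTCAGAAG

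Stretches identical in both genes bear on how well reads can be assigned. Of all stretches of 50 bases in the main transcripts, 20.6% of those of Lilr4b were found without a mismatch in Lilrb4a, and 27.6% of those of Lilrb4a in Lilr4b. For stretches of 100 bases the shares were 10.5% and 14.3%. Each row's value is therefore uncertain to the extent that such reads were dropped or placed in the wrong copy.

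The RefSeq promoter table (GRCm38.p6) holds Lilr4b and not Lilrb4a. Its 250 bases before the start of Lilr4b (chr10:51480362-51480611, plus strand) are shown because the rows moved together and this start is that of the read-through model too. Both strands were searched for the letters of 9 motifs, with the share of all 32851 promoters of the table holding each. Shares are over 250 bases too. Only the STAT motif TTCNNNGAA was found, at position -104 from the start and, being a palindrome, on both strands (7.0% of promoters). It stands in capitals.
Lilr4b promoter: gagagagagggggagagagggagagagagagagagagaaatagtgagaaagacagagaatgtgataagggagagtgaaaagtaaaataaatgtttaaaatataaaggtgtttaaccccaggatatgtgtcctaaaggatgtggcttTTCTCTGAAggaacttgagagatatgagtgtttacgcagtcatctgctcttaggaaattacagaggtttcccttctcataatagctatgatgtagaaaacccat
The other 8 had no match in these letters: T-box GGTGTGA (3.3% of promoters), AP-1 TGANTCA (6.7%), NFAT TGGAAA (18.6%), ETS GAGGAA (23.3%), IRF (3.0%), Blimp-1 (0.2%), Runx TGTGGT (14.0%) and E-box CACCTG (17.2%).

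Lilrb4a, the ITIM-bearing member, was lowest in control Tconvs and highest in CD70Tg Tregs. The row ENSMUSG00000112148 had 25 and 13 in the control Tconv libraries and 294 and 803 in the CD70Tg Tconv libraries. In Tregs it had 204 and 193 in controls and 1599 in both CD70Tg libraries. No library of a group overlapped with those of another group. How many of all genes keep the 4 groups apart was not computed, here or for the other rows. The lower CD70Tg Tconv value was above both control Treg values. Behind these values stood 24 and 6 reads in control Tconvs, 42 and 44 in control Tregs, 153 and 294 in CD70Tg Tregs, and 102 in CD70Tg Tconv library a. Its mean was 8.06-fold higher in CD70Tg than in control Tregs (log2 fold change 2.98, SE 0.36) and 28.9-fold higher in CD70Tg than in control Tconvs (log2 fold change 4.40, SE 0.36). Log2 fold changes are on the log2(value + 5) scale, which understates the change of low genes, and hence lie below the log2 of the fold in Tconvs.

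The read-through row ENSMUSG00000062593, whose exons lie nearly all within Lilrb4a, behaved alike. It had 25 and 9 in control Tconvs, 283 and 874 in CD70Tg Tconvs, 175 and 132 in control Tregs, and 1223 and 1343 in CD70Tg Tregs. Here too the 4 groups did not overlap. The mean was 8.36-fold higher in CD70Tg Tregs (log2 fold change 3.03, SE 0.42) and 34-fold higher in CD70Tg Tconvs (4.62, SE 0.42). Its ratio to the other Lilrb4a row lay between 0.684 and 1.09 over the 8 libraries.

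Lilr4b, the member without ITIMs, had 11 and 5 in control Tconvs and 257 and 544 in CD70Tg Tconvs. In Tregs it had 78 and 84 in controls and 742 and 767 in CD70Tg mice. Again no groups overlapped, and the spread was small in Tregs (754.5 ± 17.7 in CD70Tg and 81 ± 4.24 in control mice, SD, n = 2). The mean was 9.31-fold higher in CD70Tg Tregs (log2 fold change 3.14, SE 0.35) and 50.1-fold higher in CD70Tg Tconvs (4.91, SE 0.35). The Tconv fold rests on 10 and 2 control reads. Library a of CD70Tg Tconvs, with 89 reads, was 25-fold above control library a (95% interval for counting error 13 to 54) and 61.3-fold above control library b (16.5 to 514). In control Tconv library b Lilr4b lay under the value of 3 reads (6.3), taken as the floor of this library.

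**Figure D2:**
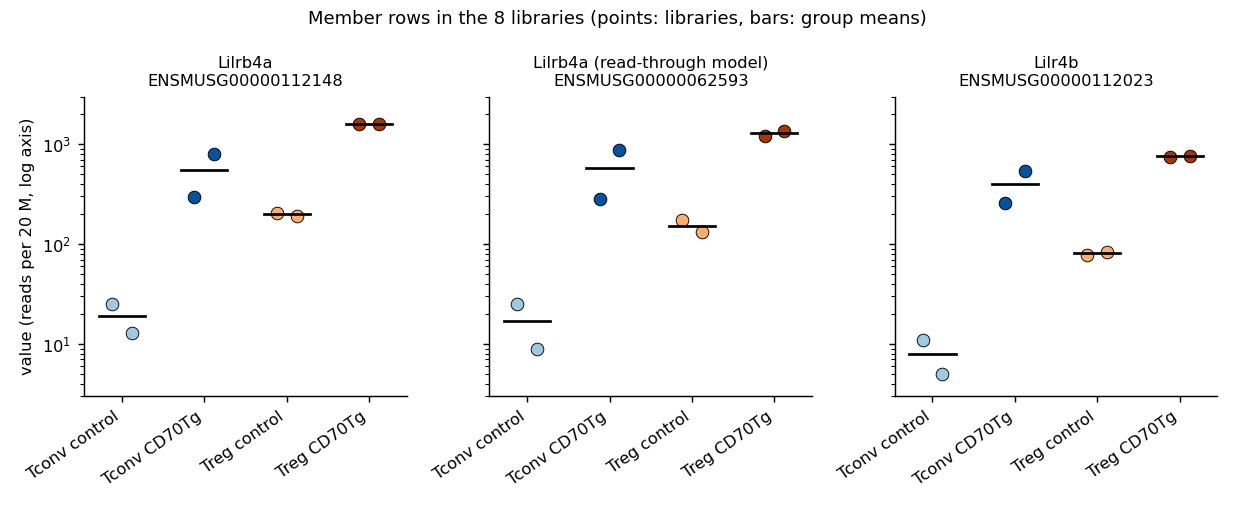
Values of the 3 rows (reads per 20 M, log axis) in the 2 libraries of each group, with points for libraries and bars for group means. In each panel the order is control Tconvs, control Tregs, CD70Tg Tconvs and CD70Tg Tregs by group means, with Treg libraries of a group closer together than Tconv libraries (for Lilr4b 742 and 767 against 257 and 544 in CD70Tg mice).

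The order of the levels was the same in the 3 rows. Both CD70Tg libraries lay above both control libraries, as in 22.5% of the 12816 genes tested in Tregs and 23.7% in Tconvs. By size of rise, the rows ranked 28th to 38th in Tregs and 9th to 17th in Tconvs among these genes. In limma's test of all genes, 2.53% were called higher in CD70Tg Tregs and 4.07% in CD70Tg Tconvs (adjusted p-value under 0.05 and log2 fold change over 1), which is given as background only, since the pair was chosen for its rise. Per kb of annotated exon, the mean in CD70Tg Tregs was 306 for Lilrb4a (ENSMUSG00000112148) and 139 for Lilr4b, and in control Tregs 38.0 and 14.9. In bulk samples, a larger share of expressing cells and more RNA per cell cannot be told apart.

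Among controls, the pair was higher in Tregs than in Tconvs. The fold of the means was 10.4 and 9.03 for the Lilrb4a rows and 10.1 for Lilr4b, with log2 differences of 3.13 (SE 0.36), 2.94 (SE 0.42) and 2.76 (SE 0.35). Both control Treg libraries were above both control Tconv libraries in 42.7% of all genes tested, and limma called 14.7% higher and 4.43% lower in control Tregs. In CD70Tg mice the gap was narrower, with Tregs 2.92-, 2.22- and 1.88-fold above Tconvs in the same order of rows. CD70Tg Tconvs in turn were 2.76-, 3.77- and 4.94-fold above control Tregs. Accordingly, the log2 fold change was smaller in Tregs than in Tconvs by a difference of -1.42 (SE 0.50) and -1.58 (SE 0.59) for Lilrb4a and -1.76 (SE 0.50) for Lilr4b. Over all genes, 1.02% passed the adjusted p-value for this difference, and 0.148% were called with a higher and 0.733% with a lower log2 fold change in Tregs. The size of the difference for the Lilrb4a rows turned on the CD70Tg Tconv libraries. The difference for ENSMUSG00000112148 was -2.14 without library a and -0.71 without library b, and for ENSMUSG00000062593 it was -2.39 and -0.78. For Lilr4b it was -2.30 and -1.23, and it moved more with the pseudocount (-0.89 with 20) and with limma-voom on reads (-2.42).

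The balance between the 2 genes was not used to choose them. Lilr4b made up 18.0% and 18.5% of the 3 summed rows in control Tconvs, and 17.1% and 20.5% in control Tregs. In CD70Tg cells it made up 30.8% and 24.5% in Tconvs and 20.8% and 20.7% in Tregs. The CD70Tg Tconv libraries thus had the highest shares, and CD70Tg Tregs lay just above the higher control Treg library. Wilson 95% intervals ran from 9.6 to 28.9% and 4.7 to 44.8% in control Tconv libraries a and b, on 58 and 12 reads, and from 25.8 to 36.3% in CD70Tg Tconv library a, on 289 reads. They cover counting error only. Their numbers of reads are summed over the 3 rows, so that they are too narrow if the same reads stand in both Lilrb4a rows. Within subsets, the share was higher in CD70Tg than in control libraries by 5.66 points (means 24.2 and 18.5%, exact two-sided permutation test within subsets, p = 0.056, adjusted over 2 tests 0.11). Since 36 arrangements are possible, 0.056 is the smallest p-value this design can give, and it cannot pass 0.05. Within genotypes, Tregs were lower than Tconvs by a difference of -3.19 points (exact permutation p = 0.22). Without the read-through row, the differences were 8.71 points (exact p = 0.056) and -5.82 points (exact p = 0.11).

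**Figure D3:**
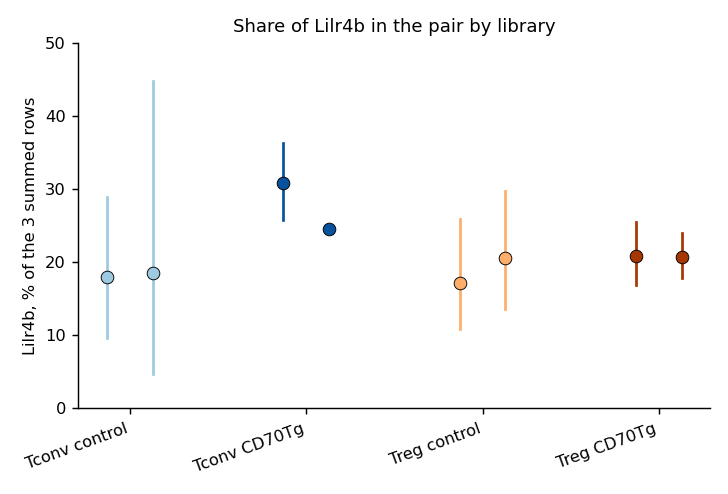
Lilr4b as a percentage of the summed 3 rows in each library (points), with Wilson 95% intervals for counting error as lines where the number of reads is known. The lines are too short if the same reads stand in both Lilrb4a rows. The CD70Tg Tconv libraries stand at 30.8 and 24.5%, the other 6 libraries between 17.1 and 20.8%.

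The neighbours that could be examined were at or near 0. Of 19 genes annotated within 500 kb, 13 have names derived from genomic clones and were not analysed here, and the other 6 reached at most a value of 2, with 5 at 0 in all 8 libraries. These 6 were too low to be tested.

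Other genes had nearly the same pattern over the 8 libraries. The closest to Lilrb4a (ENSMUSG00000112148) by Pearson correlation of log2(value + 5) was Serpina3g, a serine protease inhibitor gene of a family with near-identical copies (r = 0.997). It had 583 and 358 in control Tconvs, 4233 and 6873 in CD70Tg Tconvs, 2926 and 3157 in control Tregs, and 16122 and 16290 in CD70Tg Tregs. Hence Serpina3g had the same order of groups, on a higher level and with smaller folds (log2 fold change 2.41 in Tregs and 3.55 in Tconvs). Next came Gbp10, an interferon-inducible guanylate-binding protein gene (r = 0.995), Cd274, which encodes PD-L1 (0.994), and S100a6, which encodes a calcium-binding protein (0.993). The list of 10 went on with Bspry, Gm43302, AW112010, Tnfaip3 (A20, an inhibitor of NF-κB signalling), Chst2 and Pmaip1 (Noxa, a pro-apoptotic BH3-only protein), the last at 0.989. Lilr4b itself correlated with this row at 0.989. These correlations rest on 8 libraries in 4 groups and share the group means.

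The signalling partners of gp49B gave a single call. Of 8 genes for ITIM phosphatases and kinases, 0 passed limma's test in Tregs in either direction (adjusted p-value under 0.05 and fold over 2, with 2 at an unadjusted p under 0.05, as in 21.6% of all genes, and 0 calls by limma-voom on reads), against 2.53% of all genes called higher and 1.08% lower. The median log2 fold change of the list was -0.08 in Tregs against -0.05 over all genes tested. In Tconvs the median was 0.22 against 0.01, with 5 genes at an unadjusted p under 0.05 (19.1% of all genes) and 6 by limma-voom (26% of all genes), and 1 passed (4.07% of all genes were called higher). This was Inppl1, which encodes the lipid phosphatase SHIP2, with 271 and 208 in controls and 369 and 629 in CD70Tg libraries (log2 fold change 1.006, adjusted p = 0.0075). Inppl1 lost its call at an adjusted p of 0.08 without control Tconv library b and of 0.14 without CD70Tg Tconv library b, and of 0.14 with no minimum value, and came under the fold threshold with a pseudocount of 20 (0.96), TMM factors (0.95) or median-of-ratios factors (0.97). The 4 others with the highest levels, Lck, Csk, Fyn and Inpp5d, had log2 fold changes between -0.39 and 0.09 in Tregs and between -0.19 and 0.38 in Tconvs. Ptpn6 and Ptpn11, which encode SHP-1 and SHP-2, had 3761 and 3718 and 2640 and 2886 in control Tregs, and 3072 and 3263 and 2487 and 2442 in CD70Tg Tregs (log2 fold changes -0.24 and -0.16, adjusted p = 0.25 and 0.59).

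Of 6 genes for ligands named in studies of the mouse or human receptors, 1 rose in CD70Tg Tregs (2.53% of all genes) and 1 in CD70Tg Tconvs (4.07%). In Tregs it was Fn1, which encodes fibronectin, with 54 and 36 in controls and 178 and 126 in CD70Tg libraries (log2 fold change 1.65, adjusted p = 0.015). Outside CD70Tg Tregs it reached the minimum of 60 only in control Tconv library a, so that its call is no independent evidence. Fn1 lost its call without CD70Tg Treg library a (adjusted p = 0.12), without control Treg library b (0.11), with no minimum value (0.079) and with limma-voom (0.089). In Tconvs it was Alcam, which encodes an adhesion molecule of activated leukocytes, with 116 and 65 in controls and 205 and 302 in CD70Tg libraries (1.46, adjusted p = 0.0014), a call lost with no minimum value (adjusted p = 0.063). Short of the fold threshold, the integrin chains Itgb3 and Itgav went opposite ways in Tconvs, with log2 fold changes of -0.58 (adjusted p = 0.0036) and 0.51 (adjusted p = 0.025). Apoe, which encodes apolipoprotein E, had 1524 and 1537 in control and 763 and 1153 in CD70Tg Tregs, without passing the test (-0.70, adjusted p = 0.11).

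Of 18 other inhibitory Ig-like and ITIM receptors, 12 could be tested, and 0 were called in Tregs or in Tconvs, in either direction (limma, with 1 at an unadjusted p under 0.05 in each subset and 0 calls by limma-voom). With 2.53% of all genes called higher and 1.08% lower in Tregs, and 4.07% and 0.577% in Tconvs, a count of 0 in 12 is near the background. The 4 with the highest levels, Cd5, Pecam1, Cd72 and Cd200r1, had log2 fold changes between -0.22 and -0.06 in Tregs and between -0.30 and 0.11 in Tconvs. Pirb, the paired Ig-like receptor B, had 68 and 75 in control and 95 and 71 in CD70Tg Tregs. Cd22, a coreceptor of B cells, had 141 and 123 in control and 32 and 71 in CD70Tg Tregs (-1.37, adjusted p = 0.052), with adjusted p-values between 0.023 and 0.47 over the alternatives. Of 9 activating partners and ITAM adaptors, 5 were in the table as analysed here and 4 could be tested, with 0 calls in either subset (1 at an unadjusted p under 0.05 in each, 0 by limma-voom), which is near the background as well. Fcer1g, the common Fc receptor gamma chain, had 229 and 233 in control and 136 and 120 in CD70Tg Tregs (log2 fold change -0.83, adjusted p = 0.20).

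Coinhibitory receptors of T cells included genes that rose in one or both subsets. Of 11 genes, 9 could be tested. In Tconvs, 5 were called higher and 0 lower, against 4.07% and 0.577% of all genes, with a median log2 fold change of 2.13 (0.01 over all genes). In Tregs, 3 were called higher and 1 lower, against 2.53% and 1.08% of all genes, with a median of 0.35. The list was put together with earlier results of these data known.

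Havcr2, which encodes TIM-3, had the largest rise of the list in Tconvs. It had 13 and 9 in control Tconvs and 666 and 1123 in CD70Tg Tconvs (log2 fold change 5.78, adjusted p = 1.7e-09), and 190 and 298 in control and 586 and 756 in CD70Tg Tregs (1.46, adjusted p = 0.0067). The Treg call was lost without control Treg library a (adjusted p = 0.12) and without CD70Tg Treg library b (0.067). Klrg1, a receptor of differentiated T and NK cells, rose from 38 and 76 to 479 and 1027 in Tconvs (3.58, adjusted p = 4.7e-07) and from 1218 and 1585 to 3783 and 4073 in Tregs (1.49, adjusted p = 0.0056). Its Treg call was lost without control Treg library a (adjusted p = 0.074) and with no minimum value (0.11), as was that of Havcr2 with no minimum value (0.075) and with limma-voom (0.06). Among CD70Tg libraries, the pair was higher in Tregs than in Tconvs, whereas both Havcr2 values in Tregs lay below 1123, the higher of the Tconv values, and overlapped with them.

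Lag3, Pdcd1 (PD-1) and Tigit rose in Tconvs, with log2 fold changes of 3.58, 2.13 and 2.41 (adjusted p = 5.6e-05, 4.7e-04 and 1.8e-04), calls that were lost with no minimum value (adjusted p = 0.056, 0.099 and 0.075). Their control Tconv libraries a and b stood far apart, at 1331 and 239 for Lag3, 1867 and 547 for Pdcd1, and 1274 and 360 for Tigit. Without control library b the log2 fold changes were 2.35, 1.25 and 1.5, and without control library a 4.81, 3.01 and 3.31. In Tregs these 3 genes had 1.00, 0.01 and 0.35 (adjusted p = 0.22, 0.99 and 0.62). Lag3 had 2543 and 1826 in control and 4190 and 4453 in CD70Tg Tregs, and Tigit 6410 and 7163 against 8652 and 8607. The spread in these tests was shared with the Tconv libraries. Both genes came under an adjusted p-value of 0.05 in at least 1 alternative, so the missing calls do not show that they were unchanged. Procr, the protein C receptor, had 10 and 0 in control and 63 and 109 in CD70Tg Tregs, and between 3 and 6 in Tconvs. It is the third gene called higher in Tregs, but it reached the minimum of 60 through CD70Tg Tregs alone, so that its call is no independent evidence, and both control values are under the value of 3 reads. Cd160, a receptor for HVEM, fell by 2.31 on the log2 scale in Tregs (adjusted p = 2.3e-04), and lost the call with limma-voom (adjusted p = 0.054). Btla, another receptor for HVEM, had lower values in CD70Tg cells of both subsets, short of the fold threshold (log2 fold changes of -0.73 and -0.63 in Tregs and Tconvs, with adjusted p-values of 0.0068 and 0.012).

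**Figure D4:**
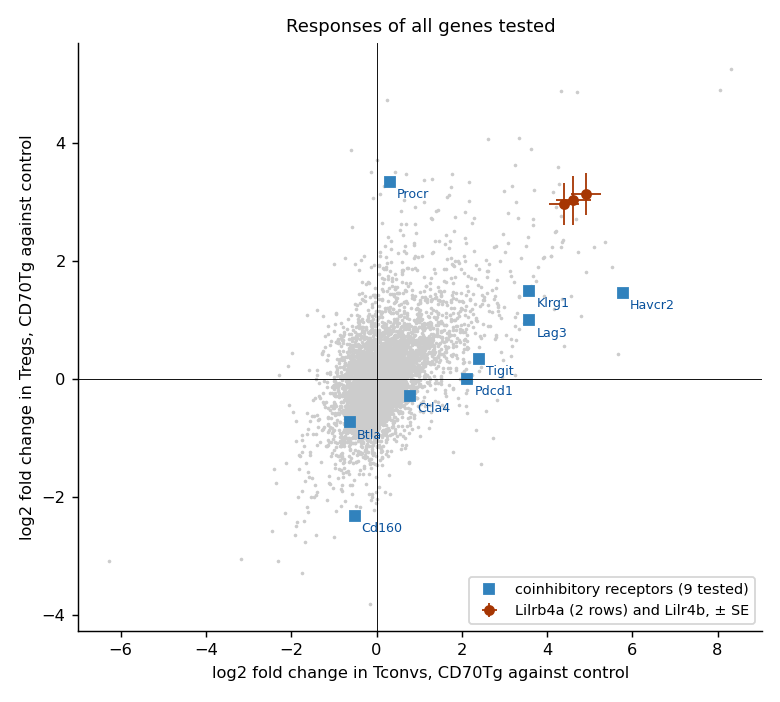
Log2 fold changes on the log2(value + 5) scale, CD70Tg against control, in Tconvs (horizontal axis) and Tregs (vertical axis), with all 12816 genes tested as grey dots, the 9 coinhibitory receptors tested as squares, and the 3 rows of the pair as circles with SE bars. The pair stands at 4.40 to 4.91 in Tconvs and 2.98 to 3.14 in Tregs, with Havcr2 farther to the right and lower (5.78 and 1.46).

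Since the pair is best known from myeloid cells, and the study depleted such cells with antibodies before sorting, markers of other cells were examined in the same libraries. The 3 summed rows lay between 409 and 457 in control Tregs and between 3564 and 3709 in CD70Tg Tregs. The 10 macrophage and monocyte markers summed to between 2980 and 3084 in control Tregs and between 3001 and 3180 in CD70Tg Tregs. In Tconvs they summed to between 1595 and 1616 in controls and between 1179 and 1551 in CD70Tg mice, where the pair lay between 27 and 61 in controls and between 834 and 2221 in CD70Tg mice. The macrophage sum thus overlapped between control and CD70Tg Tregs and was lower in CD70Tg than in control Tconvs. Single genes went opposite ways in Tregs, with Csf1r, the receptor for colony stimulating factor 1, at 1500 and 1205 in control and 930 and 762 in CD70Tg libraries (log2 fold change -0.67, adjusted p = 0.029), and Lyz2, which encodes lysozyme, at 641 and 872 and 1181 and 1077 (0.59, adjusted p = 0.072). The Treg minus Tconv difference of Lyz2 was 1.20 (adjusted p = 0.041). Of the 6 tested genes, Itgam was called higher in Tregs (1.13, adjusted p = 0.013), where limma-voom called 0 of the 6, and had -0.95 in Tconvs (adjusted p = 0.027). Cd68 was called higher in Tconvs (2.02, adjusted p = 1.1e-04).

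The summed dendritic cell markers were higher in each CD70Tg library than in each control library of its subset, though single markers differed and only Zbtb46 and Itgax could be tested. The 7 genes summed to between 109 and 156 in control and between 378 and 410 in CD70Tg Tregs, and to between 76 and 147 in control and between 195 and 347 in CD70Tg Tconvs. The change came mainly from Zbtb46 in Tregs (25 and 27 in controls, 209 and 191 in CD70Tg) and from Itgax, which encodes CD11c, in Tconvs (31 and 57, then 101 and 236). Xcr1 had 10 and 18 in control and 63 and 33 in CD70Tg Tregs, and 7 and 26 and 49 and 56 in Tconvs. Clec9a had 5 and 0 in control and 21 and 22 in CD70Tg Tregs, and between 5 and 18 in Tconvs. Siglech, Flt3 and Cd209a were lower in CD70Tg than in control Tconvs (Siglech 6 and 28 against 0 and 3). In Tregs Siglech had 0 in both control and 11 and 6 in CD70Tg libraries, Flt3 10 and 27 against 32 and 22, and Cd209a 10 and 0 against 0 in both. The CD70Tg Treg values of Siglech, and that of Clec9a in library a, lay under the value of 3 reads (31.3 in library a and 16.3 in library b). Neutrophil markers, 7 genes, summed to between 10 and 32 in control and between 226 and 254 in CD70Tg Tregs, led by S100a9, and to between 13 and 30 and between 6 and 26 in Tconvs. The part of these cells in the result was not tested.

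The mast cell and basophil markers, 8 genes, summed to between 55 and 69 in control and between 78 and 85 in CD70Tg Tregs, and to between 91 and 95 and between 116 and 151 in Tconvs. Fcer1a and Tpsb2 of this list were at 0 in all 8 libraries, and Ms4a2 reached at most 2. Other genes of the list were present in Tconvs. Kit was at 32 and 26 in control and 49 and 92 in CD70Tg Tconvs. Hdc stood at 34 and 30 and at 55 and 48 there. Cpa3 went the other way, with 25 and 36 in control and 12 and 9 in CD70Tg Tconvs. Mcpt8 had 0 in both control and 11 in both CD70Tg Treg libraries, under the value of 3 reads there (31.3 in library a and 16.3 in library b). NK cell markers, 4 genes, summed to between 36 and 64 in control and between 0 and 11 in CD70Tg Tregs, and to between 411 and 434 and between 73 and 75 in Tconvs, and Klrb1c among them was called lower in both subsets, in Tregs not by limma-voom. B and plasma cell markers, 6 genes, summed to between 318 and 401 in control and between 454 and 515 in CD70Tg Tregs, and to between 162 and 203 and between 67 and 101 in Tconvs. The 2 CD8 genes summed to between 317 and 417 and between 631 and 660 in Tregs, and to between 681 and 720 and between 1563 and 1590 in Tconvs, where Cd8a was called higher in both subsets. Whether the cells behind the B cell and CD8 markers contribute to the pair's values was not tested.

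**Figure D5:**
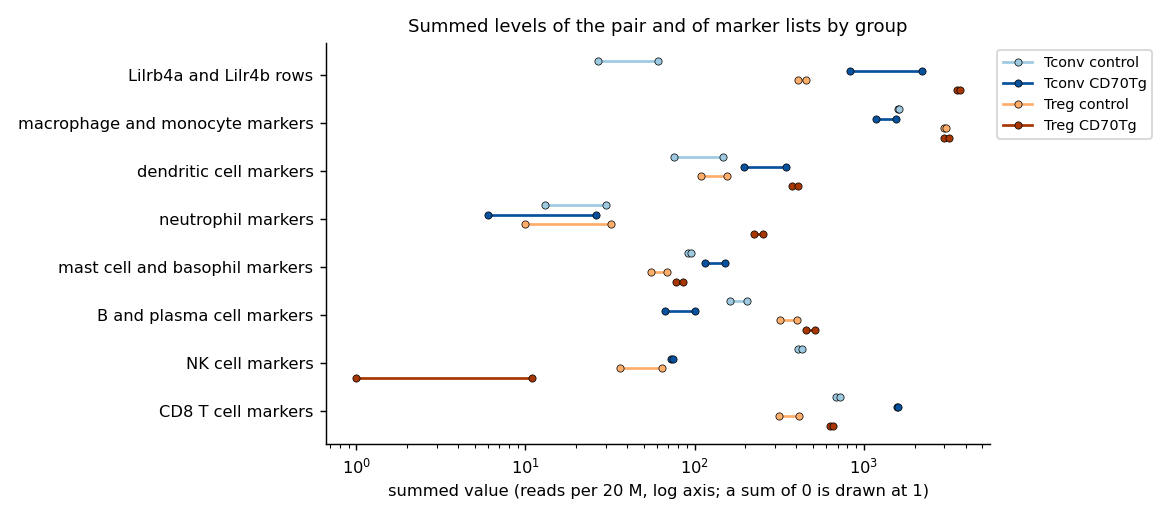
Summed values of the 3 rows of the pair and of 7 marker lists (reads per 20 M, log axis), with points for the lowest and highest library of each group joined by a line, a sum of 0 being drawn at 1. The pair was higher in CD70Tg cells of both subsets (409 to 457 against 3564 to 3709 in Tregs), whereas the macrophage and monocyte sums of control and CD70Tg Tregs lay close together (2980 to 3084 and 3001 to 3180).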

How the data were processed

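The deposited table holds score values: per the methods and the values, the authors removed adapters with Trimmomatic (0.36), mapped reads to mm10 with STAR (2.5.3), counted reads per gene with HTSeq (0.9.1), scaled each library to 20 M and rounded up to whole numbers. Library preparation (Ovation SoLo) amplifies small RNA inputs. Totals lay between 19963628 and 20164600. Columns were assigned to groups by their names. Rows with clone-derived names (4131) were left out, as their low values fit no step of 1 read, a choice made after values were seen. The value of 1 read was taken as the largest step on which at least 99% of low values lay.

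The members and all gene lists were chosen with earlier results of these data known. The 12816 genes that reached 60 in 2 or more libraries were tested with limma 3.58.1 (R 4.3.3, trend) on log2(value + 5), with 4 group coefficients. DESeq2, used by the authors, needs raw counts and was not run. Adjustment was by Benjamini-Hochberg per contrast, and called means an adjusted p-value below 0.05 with an absolute log2 fold change above 1. The genes named are the member rows, the called genes of the lists and up to 4 others of each, and the 10 genes most alike. Ptpn6, Ptpn11, Pirb, Cd22 and the cell type markers without a call were named besides, after their values were seen. The procedure was tested on simulated data.

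Gene models were taken from GENCODE M21 (GRCm38) and the promoter from RefSeq (GRCm38.p6). The alternatives comprised pseudocounts of 1 and 20, omission of the minimum, TMM and median-of-ratios factors, limma-voom on numbers of reads, the 4 libraries of a subset alone, summed member rows, and leaving out each library. For limma-voom and the weights of TMM, the values of CD70Tg Tconv library b, whose reads could not be resolved, were taken as reads. The share without the read-through row was added after the data were seen.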

Additional observations from a re-analysis of the deposited data

Results flagged for a closer look

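In 4 coinhibitory receptor genes the CD70Tg response differed between Tregs and Tconvs by the test of the difference itself (limma, adjusted p-value under 0.05 and absolute log2 difference over 1, as in 0.733% of all genes tested, lower in Tregs). The Treg minus Tconv difference of the log2 fold changes was -4.31 for Havcr2 (adjusted p = 5.7e-05, at most 0.10 over the alternatives), -2.09 for Klrg1 (0.021, at most 0.37), -2.11 for Pdcd1 (0.042, at most 0.42) and -1.05 for Ctla4 (0.041, at most 0.37). The highest adjusted p-values were those with no minimum value, where all 4 lost the call. With TMM factors, median-of-ratios factors or limma-voom, Klrg1, Pdcd1 and Ctla4 lost it too. The same 3 lost it without any 1 of CD70Tg Tconv library b, CD70Tg Treg library a, control Treg library b or CD70Tg Treg library b, with adjusted p-values of 0.064 to 0.20. The call for Pdcd1 and Ctla4 was also lost without control Treg library a (0.094 and 0.095), that for Ctla4 without control Tconv library b (0.054), and those for Pdcd1 and Ctla4 with a pseudocount of 1 (0.064 and 0.057). The size of the difference ran from -3.0 without control Tconv library a to -1.23 without control Tconv library b for Pdcd1. Without CD70Tg Tconv library a or b it was -2.63 or -1.54 for Klrg1, and -1.41 or -0.70, under the fold threshold, for Ctla4.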

How the results depend on the processing

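The 3 rows of the pair kept their direction in every comparison under every alternative run. Log2 fold changes in Tregs moved between 2.84 and 3.23 over all of them. Values with control Tconvs in them depended on the pseudocount. With 20 in place of 5, the Tconv log2 fold changes were 3.85 (ENSMUSG00000062593), 3.83 (Lilr4b) and 3.72 (ENSMUSG00000112148), the Treg minus Tconv difference was -0.89 for Lilr4b and -0.83 for ENSMUSG00000112148, and the log2 difference of control Tregs over control Tconvs was 1.86 and 2.5. With a pseudocount of 1, the 3 values for Lilr4b were 5.47, -2.26 and 3.27, and with limma-voom on reads 5.62, -2.42 and 3.27. For the summed rows, control Tregs over control Tconvs gave 3.25, against 2.76 for Lilr4b alone. When each library was left out in turn, the Tconv log2 fold changes ranged from 3.81 to 5.42, 4.37 to 5.44 and 3.69 to 5.12 (ENSMUSG00000062593, Lilr4b, ENSMUSG00000112148), and the differences from -2.39 to -0.78, -2.30 to -1.23 and -2.14 to -0.71. These extremes came from leaving out CD70Tg Tconv library a or b. The share of Lilr4b changed by 4.08 to 7.24 points with the transgene and by -4.77 to -1.61 points between subsets.

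Numbers of called genes fell with no minimum value to 150 higher and 52 lower in Tregs (main 324 and 138), 259 and 24 in Tconvs (main 522 and 74) and 0 and 0 for the difference (main 19 and 94), and for the 5 lists together to 0 higher in Tregs and 2 in Tconvs. With limma-voom they were 150 and 37 in Tregs, 130 lower in Tconvs, 9 and 43 for the difference, and 2 higher and 0 lower for the lists in Tregs. A pseudocount of 20 gave 29 higher for the difference, and the Treg libraries alone gave 2 list genes lower. Leaving out each library gave 159 to 325 higher and 40 to 184 lower in Tregs, 255 to 667 higher and 42 to 101 lower in Tconvs, 7 to 27 higher and 46 to 185 lower for the difference, 2 to 5 list genes higher and 1 to 2 lower in Tregs, and 0 to 1 lower in Tconvs. The cause was not tested. With 2 to 24 reads behind each row in control Tconvs, folds there are loose. The planned share per exon length was not run, since the read-through row has 22 exon bases of its own. No paired analysis was possible because the columns of the table carry no replicate numbers.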
